A study of Bos taurus with 6 samples.

Results

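Ribosome biogenesis and nucleolar genes were examined as a set of 40 genes, all of which were found by name, each on a single row, among the 32183 genes listed for rumen epithelial primary cells (REPC). The set was selected on the butyrate-against-control values of these same cultures together with the genes' known functions, so its difference between the groups is given below as a description without a test. REPC came from the rumen of 1 Holstein bull calf, 2 weeks of age and on milk replacer, so all cultures share 1 animal. RNA was sequenced from 3 cultures kept for 24 h with 5 mM butyrate, a short-chain fatty acid of rumen fermentation that inhibits histone deacetylases, and from 3 control cultures without it. The deposited values are FPKM, that is, fragments scaled by transcript length and by the number of mapped fragments. Levels can be set side by side between genes as far as the transcript lengths used are right. All p-values below therefore measure the spread between cultures of 1 calf, and whether they were grown on separate days is not given in the labels.

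Ribosomes are built in the nucleolus, where RNA polymerase I (Pol I) transcribes the ribosomal DNA into a long precursor RNA. Small nucleolar ribonucleoproteins (snoRNPs) modify this precursor, the box C/D class adding methyl groups and the H/ACA class converting uridine to pseudouridine. A series of assembly factors then folds and cuts the precursor into the small and the large subunit, with the large early complex on the small-subunit RNA known as the processome. The pathway is among the most costly of growing cells, and MYC is a known activator of many of its genes.

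In the labels the cells are epithelial, and 11 of 12 epithelial marker genes had a mean FPKM of at least 1 in control cultures and 12 after butyrate. Their summed FPKM was 2442 to 2552 in control and 5111 to 5205 after butyrate. Fibroblast markers were also present, with 6 of 10 at or above 1 FPKM in both groups and a sum of 4356 to 4512 in control and 6374 to 6715 after butyrate, while PDGFRB and FAP were near 0. Of 4 smooth muscle markers, 2 reached 1 FPKM in control and 3 after butyrate, with sums of 3437 to 3626 and 1033 to 1391, most of it ACTA2 and CNN1. The defining endothelial gene CDH5 and the leukocyte gene PTPRC were listed at 0 in all 6 cultures. The summed endothelial markers, at 1.318 to 1.698 in control and 3.053 to 4.897 after butyrate, and leukocyte markers, at 5.12 to 7.147 and 7.234 to 9.38, were low. The smooth muscle sum was lower after butyrate, as were the ribosome biogenesis genes, whereas the epithelial, fibroblast, endothelial and leukocyte sums were higher. Markers of a list differed in direction, as with KRT5, from 401 to 356 FPKM, and KRT14, from 72.5 to 500 FPKM. DES rose from 0.367 to 1.6 FPKM while ACTA2 and CNN1 fell. The largest fibroblast marker was VIM, at 2460 FPKM in control and 3640 FPKM after butyrate. The part of these shifts in the differences below was not tested. In bulk RNA, fewer cells of a type and less RNA per cell cannot be told apart.

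The ribosome biogenesis genes were among the better expressed genes of control REPC and were at lower levels after butyrate in all of the 5 functional roles into which they fall. Over the 40 genes the control mean ranged from 2.21 FPKM for UTP20 to 307 FPKM for NPM1, with a median of 36.2, and the butyrate mean from 0.605 to 78.3 FPKM, again UTP20 and NPM1, with a median of 13.8. For comparison, the median of all 15813 genes tested was 5.53 FPKM in control and 5.92 after butyrate. The median position of the 40 genes, given as the percentage of tested genes with a lower level, was 81.7% in control and 66.0% after butyrate. A mean above 10 FPKM was found for 34 of the 40 genes in control and for 25 after butyrate.

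Summed over the 40 genes, the control cultures held 2065, 2070 and 2107 FPKM and the butyrate cultures 736.2, 725.7 and 777.2 FPKM. This was 0.305%, 0.304% and 0.31% of all FPKM in control and 0.119%, 0.116% and 0.124% after butyrate. The groups were far apart on both scales, and cultures of a group lay close together. NPM1, FBL, NHP2 and NCL, the 4 most abundant genes in control, together made up 37.8% to 38.3% of the summed level in control and 26.5% to 30.6% after butyrate. They were picked by their control level, so a smaller share after butyrate is partly built in. After butyrate NOP16, at 61.0 FPKM, and BOP1, at 43.5 FPKM, were above FBL, at 43.0 FPKM, and NCL, at 40.2 FPKM.

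**Figure D1:**
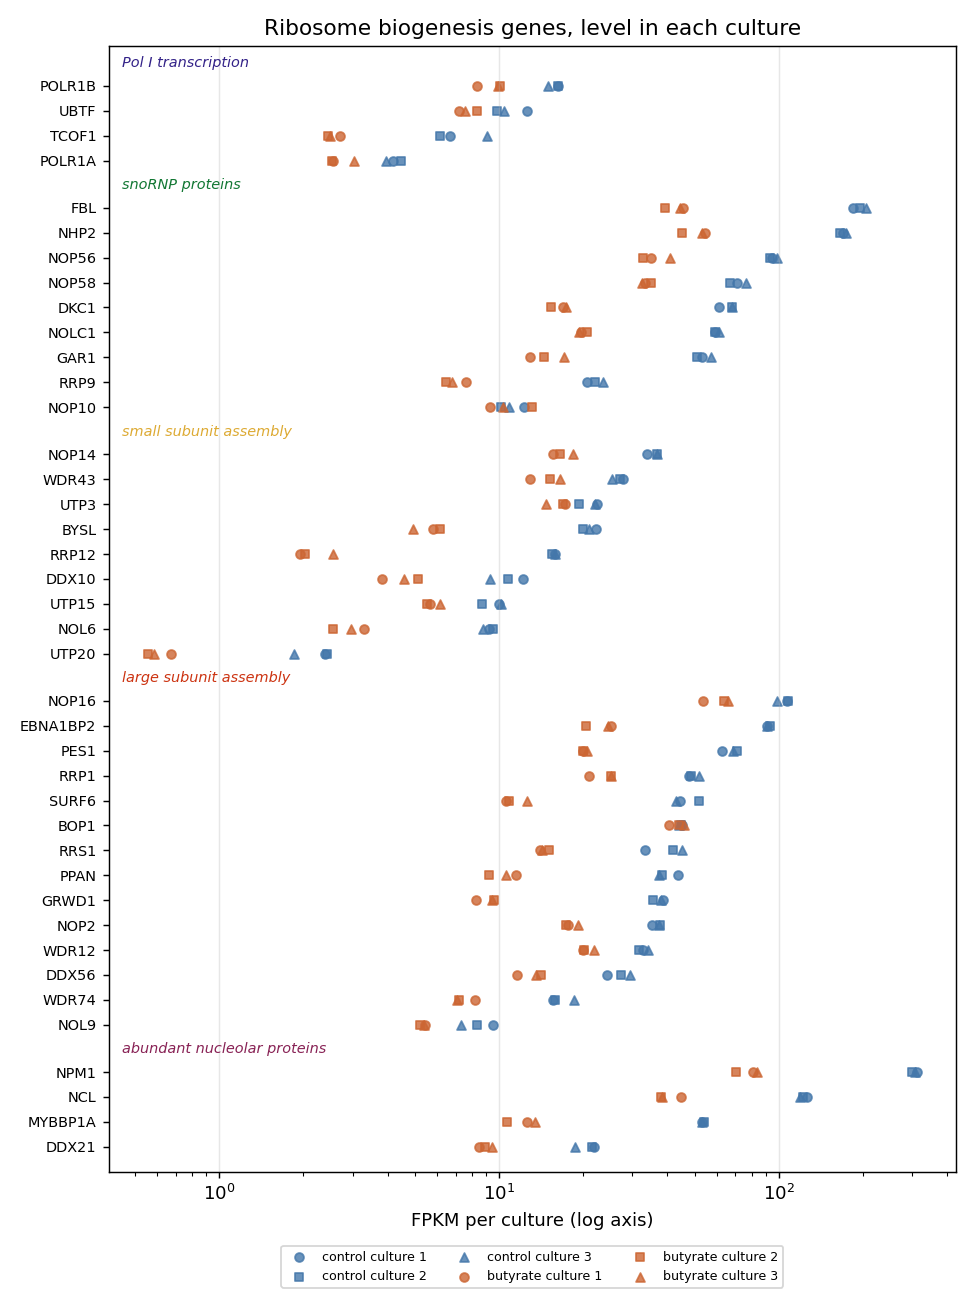
FPKM of each of the 40 genes in each of the 6 cultures on a log axis, with blue symbols for control and orange symbols for butyrate cultures and genes grouped by role. The butyrate values lie to the left of the control values for 38 genes, and for NOP10 and BOP1 the groups overlap.

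Fold changes were taken on log2(FPKM + 0.1), where changes of low genes come out too small, from a limma fit to the 15813 genes with a mean of at least 0.1 FPKM. With a Benjamini-Hochberg adjusted p under 0.05, 38 of the 40 genes were called lower after butyrate and 0 higher, where the same rule called 25.9% of all tested genes lower and 32.5% higher. Among the 12079 genes with a mean of at least 1 FPKM, a class that holds all 40, the share called lower was 32.7%. In the same 38 genes all butyrate values lay below all control values, as they did in 28.9% of all tested genes. At an unadjusted p under 0.05 the number higher was also 0. The log2 fold changes ran from -2.81 to -0.04 with a median of -1.43, beside a median of 0.10 over all tested genes. Because these values chose the genes, nothing is read from the counts. A log2 fold change below -1 was found in 29 of the 40 genes, compared with 9.19% of all tested genes.

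The study's thresholds for differentially expressed genes (DEGs) are stricter, a log2 fold change beyond 2 together with a Bonferroni-adjusted p under 0.05. The study used them with Cufflinks tools, while here they were applied to the limma fit. The DEGs named here need not be those of the study. By these thresholds 5 of the 40 genes were lower, against 1.51% of all tested genes, and 0 were higher, against 2.46%. The 5 genes were RRP12, FBL, MYBBP1A, GRWD1 and SURF6. The cut at 2 fell among closely spaced values. Just inside it lay GRWD1 at -2.03 and SURF6 at -2.02, and just outside lay DKC1 at -1.98, NPM1 at -1.97 and EBNA1BP2 at -1.96, differences smaller than the standard errors, which were 0.06 to 0.22 over the 40 genes. The number of DEGs was accordingly 8 without butyrate culture 3, and 3 after rescaling to TPM.

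**Figure D2:**
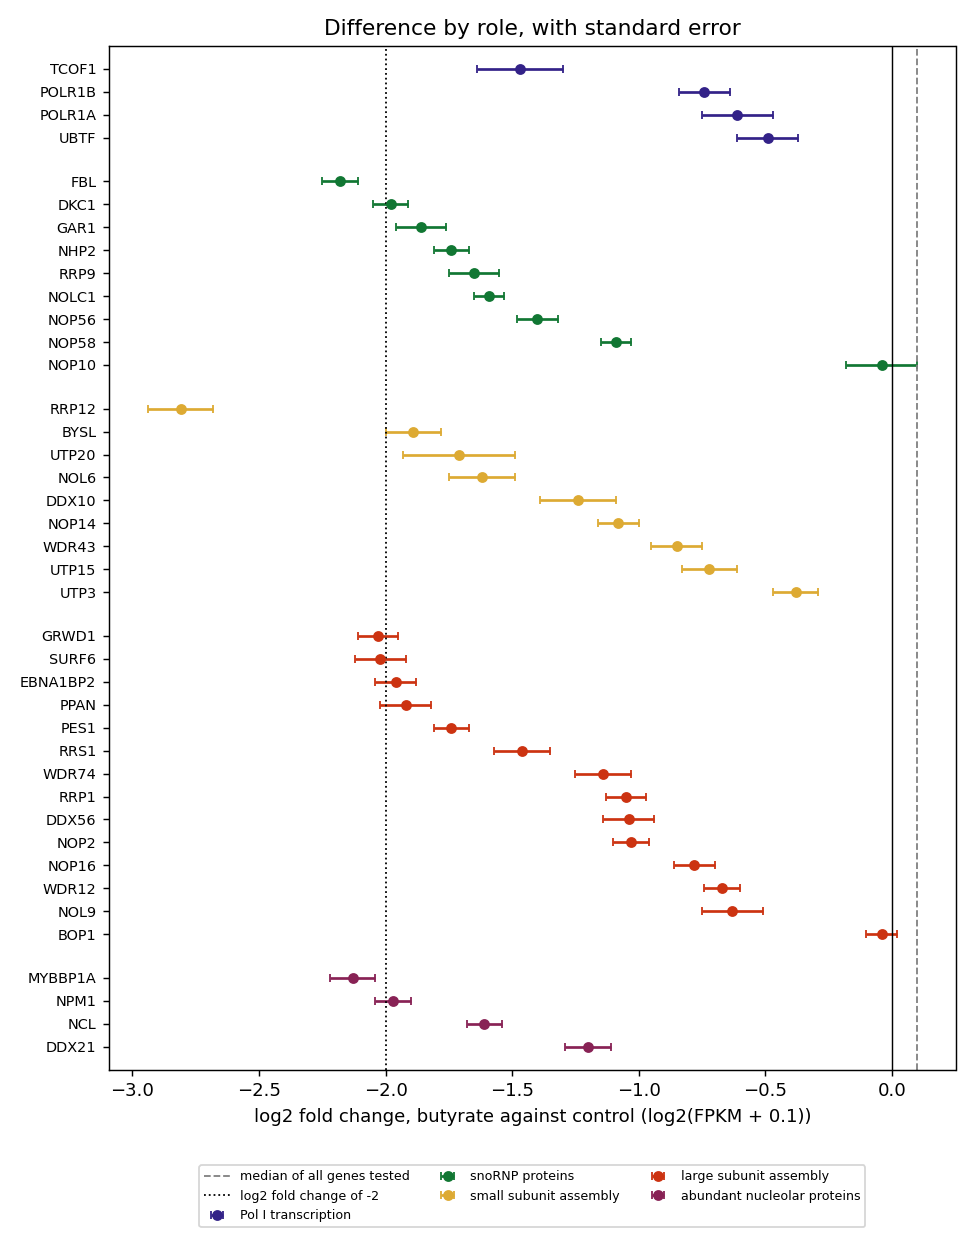
Log2 fold change of each of the 40 genes on log2(FPKM + 0.1), with its standard error from limma, ordered within each role; the dashed line is the median of all tested genes and the dotted line the DEG threshold of -2. RRP12 lies lowest at -2.81, followed by FBL at -2.18, and the nearest to 0 are UTP3 at -0.38 and NOP10 and BOP1 at -0.04.

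The Pol I transcription genes had the smallest median difference of the 5 roles, -0.68, and all 4 were lower after butyrate. POLR1B, a large catalytic subunit of the polymerase and the most abundant of the 4, measured 16.3, 16.3 and 15 FPKM in control and 8.32, 10.1 and 9.95 FPKM after butyrate. TCOF1, which encodes treacle, a nucleolar protein that links ribosomal DNA transcription to modification of the precursor, measured 6.71, 6.15 and 9.06 FPKM in control and 2.70, 2.44 and 2.49 FPKM after butyrate. UBTF, the HMG-box factor that keeps ribosomal DNA open, measured 12.6, 9.83 and 10.4 FPKM in control and 7.18, 8.37 and 7.59 FPKM after butyrate. Control and butyrate cultures were separate for each of these genes, most narrowly for UBTF. TCOF1 had the log2 fold change furthest from 0 in this role, -1.47 (standard error 0.17). The others were closer together, with POLR1B at -0.74, POLR1A, the largest catalytic subunit, at -0.61, and UBTF at -0.49. POLR1A was also the least abundant of the 4 in control, at 4.19 ± 0.245 FPKM (SD, n = 3).

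Among the snoRNP proteins, 8 of 9 genes were called lower, with a median log2 fold change of -1.65. FBL encodes fibrillarin, the methyltransferase of box C/D snoRNPs, and was the most abundant gene of the role and the one with the largest difference. It measured 184, 195 and 205 FPKM in control and 45.5, 39.1 and 44.5 FPKM after butyrate, which is 22.1% of the control mean and a log2 fold change of -2.18 (standard error 0.07). The row of FBL, on chromosome 18 from 49659187 to 49718941 in UMD3.1 coordinates, overlaps 5 other listed genes, the most abundant of them PSMC4 at 111 FPKM. The row of NOP56 overlaps 1 gene, IDH3B, at 77.9 FPKM. Whether strand was used in counting is not given in the sources used here, and how much such overlap contributes to these levels was not tested. Of the 40 genes, 6 overlap another listed row, and apart from FBL and NOP56 the overlapping genes were below 2 FPKM.

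The structural partners of fibrillarin differed less. NOP56 went from 95.3 ± 3.1 to 36.2 ± 4.27 FPKM (SD, n = 3), a log2 fold change of -1.40. NOP58 went from 71.5 ± 4.81 to 33.5 ± 1.17 FPKM (SD, n = 3), a log2 fold change of -1.09. RRP9, a protein specific to the U3 snoRNP that the processome needs, stood at 31.5% of its control mean after butyrate, with a log2 fold change of -1.65. NOLC1, the phosphoprotein that escorts snoRNPs through the nucleus, was among the tightest between cultures, at 60 ± 1.13 FPKM in control and 19.9 ± 0.736 FPKM after butyrate (SD, n = 3).

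The H/ACA snoRNP has 4 core proteins, and its genes split. DKC1, the pseudouridine synthase dyskerin, was at 65.8 ± 4.03 FPKM in control and 16.6 ± 1.02 FPKM after butyrate (SD, n = 3), a log2 fold change of -1.98. NHP2 and GAR1, which bind the RNA and the enzyme in the same particle, had log2 fold changes of -1.74 and -1.86. NOP10, the smallest protein of the particle, measured 12.3, 10.2 and 10.9 FPKM in control and 9.25, 13.1 and 10.3 FPKM after butyrate. For this gene the cultures of both groups were intermingled, the log2 fold change was -0.04 (standard error 0.14), and its sign turned to 0.08 after rescaling to TPM and to 0.07 and 0.03 without butyrate culture 1 and control culture 1. In control, NOP10 also had the lowest FPKM of the 4, at 11.1 against 53.8 for GAR1, 65.8 for DKC1 and 169 for NHP2. After butyrate it was at 10.9 FPKM beside 14.8 FPKM for GAR1, so the subunits lay closer together in FPKM. The row of NOP10, on chromosome 10 from 28351839 to 28355350, overlaps no other listed gene. From the confidence bounds that accompany the FPKM, its level rests on the equivalent of 294 to 461 fragments a culture, beside 95 to 441 for GAR1 and 266 to 1099 for DKC1. NOP10 thus had a lower FPKM than GAR1 on fragment equivalents of a similar range. Its place among the 4 rests on the transcript length used in scaling, which was not checked.

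The small subunit assembly genes were all called lower, 9 of 9, with a median log2 fold change of -1.24. RRP12, a HEAT-repeat protein of late pre-ribosomes and their export, had the largest difference of the 40 genes. It measured 15.8, 15.5 and 15.8 FPKM in control and 1.94, 2.03 and 2.55 FPKM after butyrate, on chromosome 26 from 18468761 to 18497641, with no overlapping row. This left 13.8% of the control mean, a log2 fold change of -2.81 (standard error 0.13). NOP14, a processome protein and the most abundant gene of the role, measured 33.7, 36.6 and 36.6 FPKM in control and 15.6, 16.5 and 18.4 FPKM after butyrate. UTP3, also of the processome and known as SAS10, measured 22.4, 19.4 and 22 FPKM in control and 17.2, 17.0 and 14.7 FPKM after butyrate. The groups did not overlap in any of the 3, though for UTP3 they lay close, and its log2 fold change of -0.38 was the nearest to 0 among the 38 genes called lower. That of NOP14 was -1.08.

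The remaining genes of the role lay between RRP12 and UTP3. BYSL, encoding bystin, which stays on the small subunit precursor until late, had a log2 fold change of -1.89. UTP20, a very large processome protein, had one of -1.71 and was the only member under 1 FPKM after butyrate, at 0.605 ± 0.060 FPKM (SD, n = 3). It rests on as few as 48 fragment equivalents in a culture and had the largest standard error, 0.22. NOL6 followed at -1.62 and the helicase DDX10 at -1.24. WDR43 and UTP15, which sit together in the UTP-A complex that first binds the nascent precursor, had similar values, -0.85 and -0.72.

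Of the 14 large subunit assembly genes, 13 were called lower, with a median of -1.10. GRWD1, a chaperone of ribosomal protein L3, had the largest difference of the role. It measured 38.7, 35.5 and 37.9 FPKM in control and 8.27, 9.63 and 9.41 FPKM after butyrate, a log2 fold change of -2.03 (standard error 0.08). NOP16, the most abundant gene of the role, measured 107, 108 and 98.2 FPKM in control and 53.5, 63.5 and 65.9 FPKM after butyrate, a log2 fold change of -0.78. The values of both genes were separate between the groups. Close to GRWD1 were SURF6 at -2.02, EBNA1BP2 at -1.96 and PPAN at -1.92, nucleolar proteins of early large subunit precursors. RRS1, which helps bring the 5S ribosomal RNA into the precursor, was at 40.1 ± 6.12 FPKM in control and 14.4 ± 0.620 FPKM after butyrate (SD, n = 3), a log2 fold change of -1.46. Another 4 genes lay near -1, namely WDR74 at -1.14, RRP1 at -1.05, the helicase DDX56 at -1.04 and NOP2, a methyltransferase of the large subunit RNA, at -1.03. NOL9, the kinase that acts on the RNA ends left when the internal spacer is cut, was at -0.63.

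PES1, BOP1 and WDR12 form the PeBoW complex of large subunit maturation, and each had a different value. PES1, the pescadillo homologue, was at 67.5 ± 4.41 FPKM in control and 20.1 ± 0.405 FPKM after butyrate (SD, n = 3), a log2 fold change of -1.74. WDR12 went from 32.8 ± 1.13 to 20.6 ± 1.05 FPKM (SD, n = 3), a log2 fold change of -0.67. BOP1 measured 45.2, 44.9 and 43.9 FPKM in control and 40.6, 44.1 and 45.9 FPKM after butyrate. Here the groups overlapped, with a log2 fold change of -0.04 (standard error 0.06), and the sign turned to 0.09 after rescaling to TPM, to 0.03 with quantile normalization and to 0.01 without butyrate culture 1. PES1 was the most abundant of the 3 in control, whereas BOP1 was the most abundant after butyrate. The row of BOP1, on chromosome 14 from 1825962 to 1844588, overlaps SCX, which averaged 0.946 FPKM. BOP1 was precisely measured, on the equivalent of 453 to 617 fragments a culture.

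The abundant nucleolar proteins were all 4 lower, and their median of -1.79 was the furthest from 0 of the 5 roles. NPM1, nucleophosmin, a histone and ribosomal protein chaperone, was the most abundant of the 40 genes. It measured 312, 300 and 308 FPKM in control and 81.0, 70.1 and 83.7 FPKM after butyrate, which is 25.5% of the control mean and a log2 fold change of -1.97. MYBBP1A, a nucleolar MYB-binding protein that takes part in precursor processing, measured 53.2, 54.2 and 53.1 FPKM in control and 12.6, 10.7 and 13.4 FPKM after butyrate. DDX21, an RNA helicase that acts in Pol I transcription and processing, measured 21.8, 21.5 and 18.7 FPKM in control and 8.49, 8.88 and 9.46 FPKM after butyrate. None of these genes showed any overlap between the groups. MYBBP1A had a log2 fold change of -2.13, NCL, nucleolin, one of -1.61, and DDX21 one of -1.20. NPM1, on chromosome 20 from 3111165 to 3124084, remained above 91.0% of tested genes after butyrate, from 97.3% in control.

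**Figure D3:**
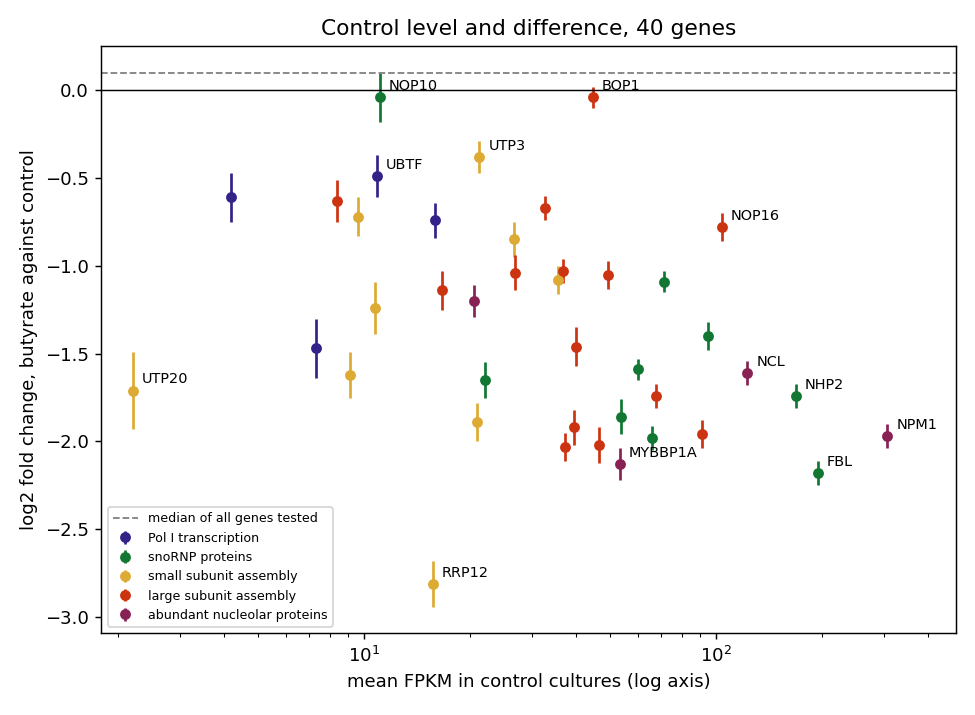
Control mean FPKM on a log axis against log2 fold change with its standard error for the 40 genes, coloured by role; the dashed line is the median of all tested genes. Genes of each control level spread widely, as with RRP12 at -2.81 and NOP10 at -0.04, whose control means were 15.7 and 11.1 FPKM.

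The more abundant genes tended to have the larger differences, although loosely. Across the 40 genes, Pearson's r between the log2 control mean and the log2 fold change was -0.348 and Spearman's rho was -0.41. The control mean enters both measures, and genes from the same 6 libraries are not independent replicates. The order of levels was largely retained, with a rho of 0.893 between control and butyrate means and 8 of the 10 most abundant genes in common. The ratio of the highest to the lowest level was 139 in control and 129 after butyrate. The coefficient of variation between cultures of a group had a median of 5.66% in control, with a range from 1.04% to 21.1%, and of 9.30% after butyrate, with a range from 2.01% to 18.3%. The 40 genes lie on 24 chromosomes, with at most 4 on any 1 of them.

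As a comparison from the same pathway, 148 other ribosome assembly genes were listed by function, and 147 of them were matched by name, 9 under an older symbol, while EXOSC6 was not matched. These were tested in the same limma fit across all genes, and since the list was drawn up with earlier results of these data known, it is described by counts beside those of all genes. After butyrate 125 of 147 fell and 5 rose (limma, Benjamini-Hochberg adjusted p under 0.05), and 17 were not called, while 25.9% of all tested genes were lower and 32.5% higher. Among genes with a mean of at least 1 FPKM, which hold 145 of the 147, the share called lower was 32.7%. These shares also stand beside the counts by role below. The median log2 fold change was -0.74, nearer to 0 than the -1.43 of the 40 genes, which were selected on this contrast. It was 0.10 over all tested genes and 0.0 over those with a mean of at least 1 FPKM. The DEG thresholds were met by 2 of these genes, CCDC86 and GNL3, both lower, a share near the 1.51% of all tested genes. Their summed level was 4545, 4560 and 4622 FPKM in control and 2804, 2948 and 2930 FPKM after butyrate.

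The large subunit factors of this list had 49 of 54 genes falling and 1 rising, with a median of -0.80. CCDC86, a nucleolar coiled-coil protein known as cyclon, had the largest fall, measuring 31.3, 32.1 and 32.6 FPKM in control and 5.57, 6.31 and 5.89 FPKM after butyrate. GNL3, the GTPase nucleostemin, measured 44.1, 47.5 and 46.0 FPKM in control and 9.94, 7.81 and 11.2 FPKM after butyrate. Butyrate values of both genes were far below all control values. Their log2 fold changes were -2.42 (limma, Benjamini-Hochberg adjusted p = 1.1e-07) and -2.25 (limma, Benjamini-Hochberg adjusted p = 1.2e-06). The helicase DDX31 was the 1 that rose, from 66.5, 72.9 and 68.9 FPKM to 76.9, 77.4 and 78.4 FPKM, a log2 fold change of 0.16 (limma, Benjamini-Hochberg adjusted p = 0.025).

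Among small subunit factors 43 of 49 fell and 3 rose, with a median of -0.72. PWP2, a subunit of the UTP-B complex of the processome, fell from 15.8, 15.1 and 15.4 FPKM to 5.75, 4.38 and 4.79 FPKM, a log2 fold change of -1.62 (limma, Benjamini-Hochberg adjusted p = 5.7e-06). RRP7A, which binds the precursor beside NOL6, fell from 24.9, 24.3 and 25.8 FPKM to 8.94, 8.43 and 6.96 FPKM, also with a log2 fold change of -1.62 (limma, Benjamini-Hochberg adjusted p = 3e-06). UTP6, another UTP-B subunit, rose from 17.8, 16.0 and 15.1 FPKM to 25, 28 and 25.5 FPKM. Every butyrate culture was above every control culture for UTP6, which had a log2 fold change of 0.68 (limma, Benjamini-Hochberg adjusted p = 0.00018), and the same was true of UTP14A. UTP14A, a processome protein, rose from 27.4, 30.3 and 29.4 FPKM to 36.9, 42.2 and 36.2 FPKM, a log2 fold change of 0.40 (limma, Benjamini-Hochberg adjusted p = 0.0022). BUD23, a methyltransferase of the small subunit RNA that is named here because it completes the rises, went from 185 ± 9.95 to 215 ± 21.7 FPKM (SD, n = 3), a log2 fold change of 0.21 (limma, Benjamini-Hochberg adjusted p = 0.037).

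**Figure D4:**
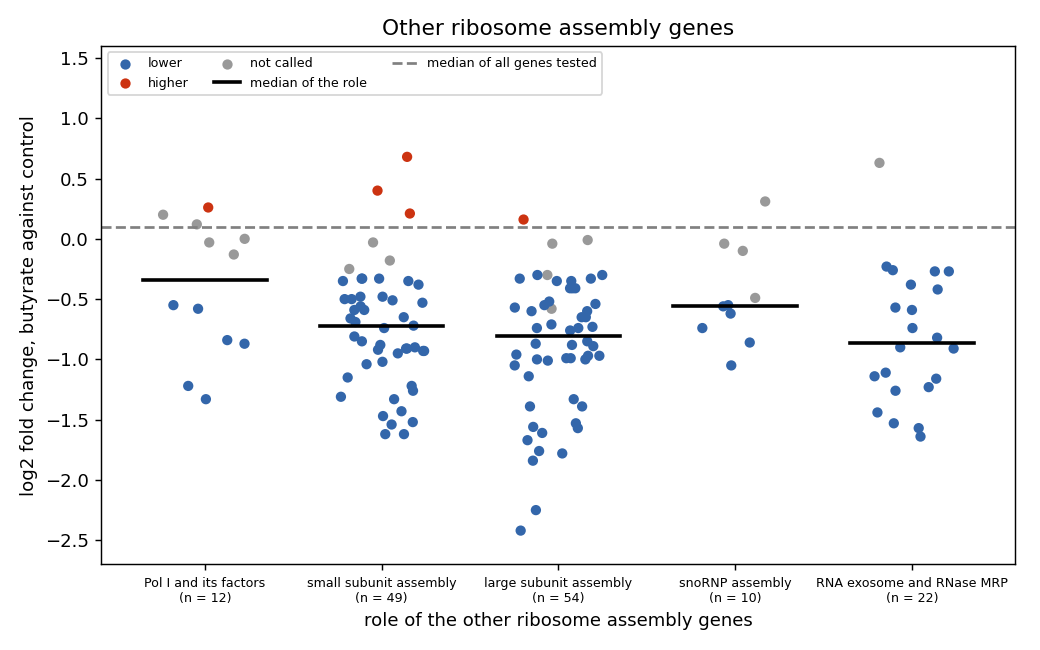
Log2 fold change of 147 other ribosome assembly genes by role, with blue, red and grey points for genes called lower, higher and not called at a Benjamini-Hochberg adjusted p under 0.05, a bar for the median of each role and a dashed line for the median of all tested genes. Medians run from -0.86 for the exosome and RNase MRP genes to -0.34 for Pol I and its factors, all below the 0.10 of all genes.

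The RNA exosome, which trims the ends of ribosomal RNA precursors, and RNase MRP, which cuts them, had 21 of 22 genes falling and 0 rising in limma (0 also at an unadjusted p under 0.05), with the lowest median of the list, -0.86. MPHOSPH6, an exosome cofactor, fell from 27.9, 29.3 and 30.4 FPKM to 9.83, 8.40 and 9.64 FPKM, a log2 fold change of -1.64 (limma, Benjamini-Hochberg adjusted p = 1e-06). EXOSC8, a ring subunit, fell from 35.9, 35.3 and 39.0 FPKM to 11.1, 13.0 and 12.9 FPKM, a log2 fold change of -1.57 (limma, Benjamini-Hochberg adjusted p = 1.3e-06). The row of EXOSC8 overlaps SUPT20H, at 13.9 FPKM. The 8 measured genes of the exosome core all fell, EXOSC4 least, at -0.26 (limma, Benjamini-Hochberg adjusted p = 0.018), a call that was lost with quantile normalization, at -0.11, after rescaling to TPM, at -0.14, without the mean-variance trend, and without butyrate culture 1 or 2 or control culture 2 or 3, at -0.25 to -0.19.

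Pol I subunits and factors outside the set were the most mixed, with 6 of 12 falling, 1 rising and 5 not called, and a median of -0.34. POLR1C, a subunit shared by Pol I and Pol III, fell from 29.6, 28.5 and 27.4 FPKM to 10.6, 11.7 and 11.4 FPKM, a log2 fold change of -1.33 (limma, Benjamini-Hochberg adjusted p = 1.4e-06). POLR1G, listed as CD3EAP, fell from 18.0, 19.4 and 15.4 FPKM to 7.25, 7.82 and 7.33 FPKM, a log2 fold change of -1.22 (limma, Benjamini-Hochberg adjusted p = 1.6e-05), and its row overlaps ERCC1 at 69.5 FPKM. TTF1, which ends Pol I transcription, rose from 6.70, 6.98 and 7 FPKM to 7.98, 8.36 and 8.47 FPKM, a log2 fold change of 0.26 (limma, Benjamini-Hochberg adjusted p = 0.041). Among the 8 Pol I subunits, POLR1A and POLR1B included, 7 were called lower, and the exception was POLR1D, the partner of POLR1C, at 31.9 ± 2.71 and 31.9 ± 1.6 FPKM (SD, n = 3). Of the 4 TAF proteins of the SL1 promoter factor only TAF1D was called, at -0.84 (limma, Benjamini-Hochberg adjusted p = 0.00076), while TAF1A, TAF1B and TAF1C had log2 fold changes of 0.12, -0.03 and 0.20 whose signs turned under other scalings. TAF1A and TAF1C were low, at 1.6 and 1.72 FPKM in control, with standard errors of 0.21 and 0.22. They rest on 22 to 37 and 19 to 50 fragment equivalents a culture, so a modest difference could be missed.

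Some of these calls depended on single cultures. Under the 6 fits that each left out 1 culture, 114 to 120 of the 147 genes were called lower and 2 to 5 higher. The count of rises was 2 without butyrate culture 2 or control culture 1 and 3 without butyrate culture 3, control culture 2 or control culture 3. UTP6 and UTP14A were called higher in each of these 6 fits. The call of TTF1 was lost in all 6, with adjusted p-values from limma of 0.054 to 0.10, that of DDX31 in 4, at 0.051 to 0.09, and that of BUD23 in 3, at 0.086 to 0.11. With all cultures kept, TTF1 also lost its call in limma with quantile normalization, at 0.14, and with the replicate number as a block, at 0.075. DDX31 lost it without the trend, at 0.096. BUD23 lost it with no filter, at 0.07, with the block, at 0.055, and without the trend, at 0.13.

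The snoRNP assembly factors had 6 of 10 genes falling and 0 rising in limma (0 also at an unadjusted p under 0.05), with a median of -0.56. The falls were led by the AAA+ ATPases RUVBL2 and RUVBL1 of the R2TP chaperone. RUVBL2 fell from 71.9, 76.8 and 75.3 FPKM to 32.7, 38.5 and 36.8 FPKM, a log2 fold change of -1.05 (limma, Benjamini-Hochberg adjusted p = 3.8e-06). RUVBL1 fell from 213, 211 and 211 FPKM to 118, 114 and 117 FPKM, a log2 fold change of -0.86 (limma, Benjamini-Hochberg adjusted p = 4.8e-07). The other R2TP subunits were not called, PIH1D1 at -0.10 and RPAP3 at 0.31 (limma, Benjamini-Hochberg adjusted p = 0.13 and 0.11). RPAP3 was called higher, at 0.48, without butyrate culture 1 and, at 0.43, after rescaling to TPM.

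Grouping both lists by known complexes, a grouping made after the values were seen, showed complexes whose genes were lower throughout and complexes whose genes split. The 6 genes of UTP-A had log2 fold changes from -1.43 for HEATR1 to -0.53 for WDR75, the 3 genes of the MPP10 complex from -1.47 for IMP4 to -0.93 for IMP3, and 6 genes of the PELP1, TEX10 and WDR18 complex with its partners from -1.33 for LAS1L to -0.54 for SENP3. All of these genes were called lower. The value of HEATR1 has a standard error of 0.23 and rests on the equivalent of 5 to 22 fragments a culture. The box C/D core had 4 of 4 genes called lower, from FBL at -2.18 to SNU13 at -0.74. UTP-B had 4 of 6 genes called lower and 1 higher, with PWP2 at -1.62, WDR36 at -0.88, TBL3 at -0.85, WDR3 at -0.33, UTP18 at -0.25 and UTP6 at 0.68. The call of WDR3 was lost after rescaling to TPM, at -0.21, and UTP18 was called lower without butyrate culture 2, at -0.33. The row of IMP4 overlaps CCDC115, at 24.7 FPKM, and that of WDR3 overlaps 2 listed genes, the more abundant being GDAP2 at 13.9 FPKM. What such overlap contributes and the differences between subunits of a complex were not tested.

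**Figure D5:**
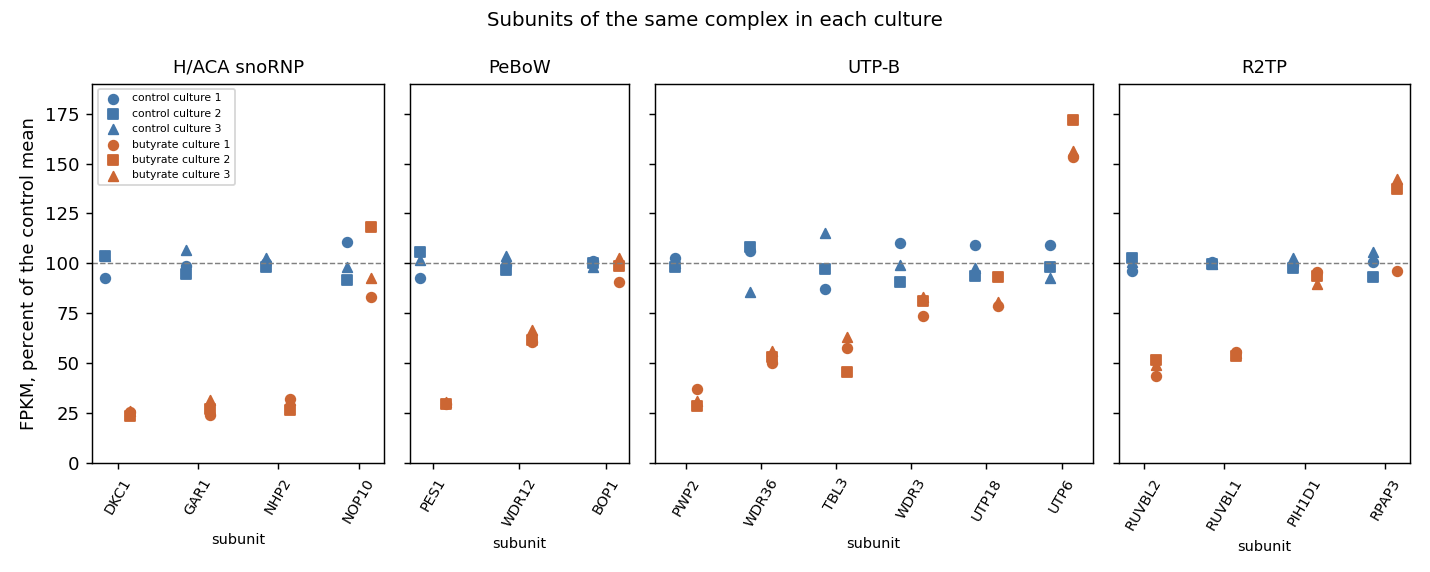
FPKM of each subunit in each culture as a percentage of that gene's control mean for 4 complexes whose genes split, with blue symbols for control and orange symbols for butyrate cultures and a dashed line at the control mean. The butyrate values of DKC1, GAR1, NHP2 and PES1 are far below the control values, those of NOP10 and BOP1 overlap with them, and those of UTP6 are above them.

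MYC, the transcription factor known to act on many genes of this pathway, measured 89.5, 97.5 and 99.1 FPKM in control and 55.6, 51.3 and 69.5 FPKM after butyrate. It fell by 0.71 on the log2 scale, standard error 0.11 (limma, Benjamini-Hochberg adjusted p = 0.00046), and its part in the levels above was not tested.

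The FPKM of a culture summed to 678035 to 681912 in control and to 619401 to 629037 after butyrate. Rescaling every culture to the same total, as TPM, moved the median of all tested genes by 0.14 on the log2 scale, and quantile normalization moved it by -0.15. The filter and the pseudocount were applied after rescaling to TPM, when 16571 rather than 15813 genes passed. The median of all genes with TPM is thus over a different set, and the 0.14 is not from rescaling alone. Relative to the median of all genes, the median of the 40 genes was -1.53 as deposited, -1.55 after rescaling to TPM and -1.32 with quantile normalization. Under both scalings 38 of the 40 genes were called lower. The confidence bounds correspond to 5751780 to 6182000 fragment equivalents a culture in control and to 5801702 to 6136770 after butyrate. For any of the 40 genes they correspond to 48 to 3110 in a culture of either group. These values are an approximation, and sequencing depth itself was not measured here.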

How the data were processed

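RNA-seq of 6 REPC cultures (3 control, 3 butyrate, grouped by the labels) was used. The authors trimmed reads with Trim Galore 0.4.1, aligned them with STAR, kept uniquely mapped reads and deposited Cufflinks FPKM per gene with confidence bounds. The submitters' processing notes name UMD3.1, and coordinates are as the files give them. Tables were joined by position, since gene order differs between them, and 2 genes with failed estimates were left out. Chromosomes came from RefSeq gene names (ARS-UCD2.0), used for names only. FPKM are not counts, so limma 3.58.1 (R 4.3.3) with a mean-variance trend was fitted to log2(FPKM + 0.1) for genes with a mean of at least 0.1, and adjusted over all 15813. The limma step was tested on simulated data. Fragment equivalents are (FPKM/SE) squared, with a bound taken as 2 SE. They reflect the error of the estimate within a culture, not the spread between cultures, and need not equal fragment counts.

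The 40 genes, the other lists and the tests were chosen with earlier results of these data known. Values in every culture are given, per role, for the members with the lowest and highest log2 fold change and the highest mean FPKM, and for up to 2 largest rises and 2 largest falls of the other genes called with non-overlapping groups. Complexes, subunits named for them and BUD23 were chosen after their values were seen. Alternatives were pseudocounts 0.01 and 1, no filter and a filter at 1, no trend, TPM, quantile normalization, the replicate number as a block and each culture left out. Promoter and protein sequences were not analysed here. Groups of 3 against 3 cannot give an exact permutation p below 0.1, so single genes were not tested that way.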

Additional observations from a re-analysis of the deposited data

How the results depend on the processing

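Across 14 alternatives, 38 of the 40 genes were called lower and 0 higher in each (limma, Benjamini-Hochberg adjusted p under 0.05). The number of these genes meeting the DEG thresholds, 5, was 3 with pseudocount 1 and with TPM, and 4 to 8 with a culture left out. Their median log2 fold change, -1.43, was -1.17 with pseudocount 1, -1.36 with quantile normalization, -1.31 with TPM and -1.46 to -1.35 with a culture left out. Of the 147 other genes, 109 to 127 were called lower under the 8 alternatives that kept all cultures and 114 to 120 with a culture left out. Their median, -0.74, was -0.69 with pseudocount 1, -0.61 with TPM and -0.74 to -0.70 with a culture left out. Their count of rises, 5, was 6 with TPM, 4 with quantile normalization and with no filter, 3 without the trend and 2 to 5 with a culture left out, and their DEG count, 2, was 1 without the trend. The causes of these shifts were not tested, though adding a larger pseudocount shrinks differences by construction.

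Among 90 genes recomputed singly, the sign turned only in genes that were not called. NOP10, at -0.04, was 0.08 with TPM and -0.18 to 0.07 with a culture left out. BOP1, at -0.04, was 0.09 with TPM, 0.03 with quantile normalization and -0.08 to 0.01 with a culture left out. POLR1D, at 0.00, was -0.07 to 0.05 with a culture left out. TAF1B, at -0.03, was 0.09 with TPM and -0.08 to 0.05 with a culture left out. TAF1A and TAF1C, at 0.12 and 0.20, were -0.27 and -0.16 with quantile normalization, and PIH1D1, at -0.10, was 0.02 with TPM.

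With the replicate number as a block, 38 of the 40 genes were again called lower, and 3 rather than 5 of the other genes higher. Whether same-numbered cultures were grown together is not given in the labels. Their deviations correlated at -0.00431 to 0.0228 across genes, and 2 of 6 cultures correlated best with their own number. With 3 pairs this check cannot decide whether a pairing exists. Few fragment equivalents stood behind some genes of low FPKM, such as HEATR1, at 5 to 22 a culture. The row of HEATR1 runs from 9288633 to 9292584 on chromosome 28, and whether it covers the whole gene was not tested.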
